A study of Mus musculus with 6 samples.

Results

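The cytoplasmic ribosomal proteins were followed as a gene family through 3 groups of mouse aortas. They were defined as the probe sets that the annotation of the array assigned to 1 mouse symbol beginning with Rpl or Rps and a digit, or to Rpsa, Rplp0, Rplp1 or Rplp2, without the Rps6k kinases and without pseudogenes. This rule found 106 of the 45101 probe sets, which stood for 50 genes. Among them were 57 probe sets of 23 small-subunit genes, 46 probe sets of 24 large-subunit genes and 2 probe sets of 2 genes of the ribosomal stalk. The remaining probe set was of Rps19bp1, which carries a matching symbol but encodes a binding partner of a ribosomal protein, and it was left out of the counts by subunit.

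Ribosomal proteins are made in the cytoplasm, imported into the nucleolus and assembled there with ribosomal RNA into a small subunit, which decodes the mRNA, and a large subunit, which forms the peptide bond. Their mRNAs are among the most abundant of any cell, and most of them begin with a run of pyrimidines, the TOP motif, through which mTOR signaling controls how fast they are translated. Some genes have a second copy with restricted expression, of which Rpl3l, found in skeletal and heart muscle, is the best known.

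Aortas came from untreated ApoE-/- mice, from ApoE-/- mice given the antioxidant vitamin E at 2000 IU per kg of diet for 7 months, and from non-transgenic B6 (C57BL/6J) mice, the background of the ApoE-/- strain. ApoE-/- mice lack apolipoprotein E, a ligand for the clearance of lipoproteins, become hypercholesterolemic and develop atherosclerotic plaques. Treatment began when the ApoE-/- mice were 4 to 6 weeks old. The chow had 7% fat and 0.15% cholesterol, and mice of every group were 32 to 34 weeks of age when the aortas were taken. Each group had 2 arrays with the RNA of 3 pooled aortas on each, so that single mice cannot be seen and p-values measure the spread between these pools. The study also had a captopril group, which is not analysed here.

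Signal intensities are linear and had been scaled per array by the authors. Tests used limma on log2 values of all 6 arrays and covered probe sets whose mean reached 100 in any group. A probe set is called where its adjusted p was below 0.05. Of the ribosomal protein probe sets, 86 passed this filter and stood for 46 genes. Of the 20 that did not pass, 7 were under 20 on every array and the highest group mean was 94.3. Rpl12, Rps16, Rps27 and Rpl39l had no other probe set with 1 symbol. One Rpl41 probe set passed through the B6 group alone. A further 110 probe sets carried several symbols, at least 1 of them a ribosomal protein, and 93 of these were tested as a group without naming a gene.

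The arrays were alike in overall brightness, with means of 305 to 319, but differed in other respects. The summed signal of 8 smooth muscle markers was 19800 to 20483 in untreated ApoE-/-, 17559 to 18551 in vitamin E-treated ApoE-/- and 20521 to 21235 in B6 aortas, and all 8 markers had a group mean of at least 100 in every group. Markers of other tissues were present too. The 8 markers of immature thymocytes summed to 4685 to 5732 in untreated, 8815 to 8970 in vitamin E-treated and 616 to 639.9 in B6 aortas, and 6, 7 and 2 of the 8 had a group mean of at least 100 in these groups, while Rag1, which cuts antigen receptor genes, was at 10.4 and 3.14 on the B6 arrays. The 5 markers of proliferating cells summed to 3861 to 4137, 5630 to 5751 and 1274 to 1384 in the same order. The 5 liver markers reached 14330 to 14754 in B6 aortas, against 767 to 787 in untreated and 1366 to 1409.5 in vitamin E-treated aortas. The control probe set for 18S ribosomal RNA had a signal of 580.0 and 595 in B6 aortas and lower ones in all ApoE-/- aortas, down to 88.0, and the spiked bacterial Dap control had signals of 918 to 978, 1192 to 1203 and 3179 to 3203. The ratio of the 3′ to the 5′ Gapdh probe set was 1.03 and 1.06, 1.15 and 1.24, and 1.35 and 1.34. The part of these differences in the results was not tested, and in whole tissue a change in the number of cells and a change in the RNA per cell cannot be told apart.

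The start of the transcript was examined for the run of pyrimidines. RefSeq promoters of assembly GRCm38.p6 were at hand for 44 of the 50 genes, in 52 versions, and Rpl7, Rpl8, Rps14, Rps20, Rps29 and Rps4l had no entry. The windows below run from 10 bases before the annotated start to 20 bases into the transcript, 5′ to 3′ on the strand of the gene. Capitals mark a run of pyrimidines (C or T) that holds a C followed by at least 4 pyrimidines, with this C at or within 5 bases of the start. Windows without capitals have none by this definition, though they may hold shorter runs. The first 5 belong to ordinary ribosomal proteins and the next 3 to second copies, all with values described further on. Rps28, the last, is an ordinary gene whose window has no such run.
Rpl35, chr2:39005112-39005141, minus strand: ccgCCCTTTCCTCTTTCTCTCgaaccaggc
Rpl13a, chr7:45128726-45128755, minus strand: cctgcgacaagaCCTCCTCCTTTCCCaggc
Rpl38, chr11:114668570-114668599, plus strand: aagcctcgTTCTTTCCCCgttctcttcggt
Rplp2, chr7:141447641-141447670, plus strand: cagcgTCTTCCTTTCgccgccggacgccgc
Rps10, chr17:27635225-27635254, minus strand: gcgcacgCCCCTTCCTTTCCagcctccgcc
Rpl22l1, chr3:28805498-28805527, plus strand: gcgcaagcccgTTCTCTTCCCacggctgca
Rpl3l, chr17:24727816-24727845, plus strand: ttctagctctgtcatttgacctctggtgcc
Rpl7l1, chr17:46782637-46782666, minus strand: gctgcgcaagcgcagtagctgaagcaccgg
Rps28, chr17:33824543-33824572, minus strand: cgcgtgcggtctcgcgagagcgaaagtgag

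A C exactly at the annotated start, followed by at least 4 pyrimidines, was found in 8 of the 52 ribosomal protein promoters, or 15.4%, and in 2.51% of all 32851 promoters of the table. Within 5 bases of the start, 40.4% held such a run, against 18.3% of all. The letters CCGGAAG, searched on both strands of the 300 bases around the start, were in 40.4% of ribosomal protein promoters and in 8.86% of all, and AAGATGGC was in 7.69% and 2.75%. TATAAA was in 11.5% against 13.6%. A match says only that the letters are present, and these shares depend on the annotated start being right.

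Ribosomal protein probe sets were bright, and most changed by less than 1.2-fold in each comparison. Their group means reached 15377, and 68 of the 86 had a mean over all arrays of at least 2000, which holds for 1396 of the 17909 probe sets tested. The genes with the highest mean signal were Rps29 of the small subunit, Rplp2 of the stalk, and Rpl38 and Rpl13a of the large subunit. Rps29 (1438859_x_at) had signals of 14617 and 15337 in B6, 13850 and 14074 in untreated ApoE-/-, and 14306 and 16448 in vitamin E-treated ApoE-/- aortas. Rpl38 signals (1433472_x_at) were 13259 and 13257 in B6, 11261 and 11787 in untreated and 12001 and 15032 in vitamin E-treated aortas. On these 2 probe sets the untreated arrays were the lowest and the second vitamin E array was the highest of all 6. On another Rps29 probe set, with 13389 and 13142 in B6, 13388 and 14111 in untreated and 14419 and 15895 in vitamin E-treated aortas, the untreated and B6 arrays overlapped.

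**Figure D1:**
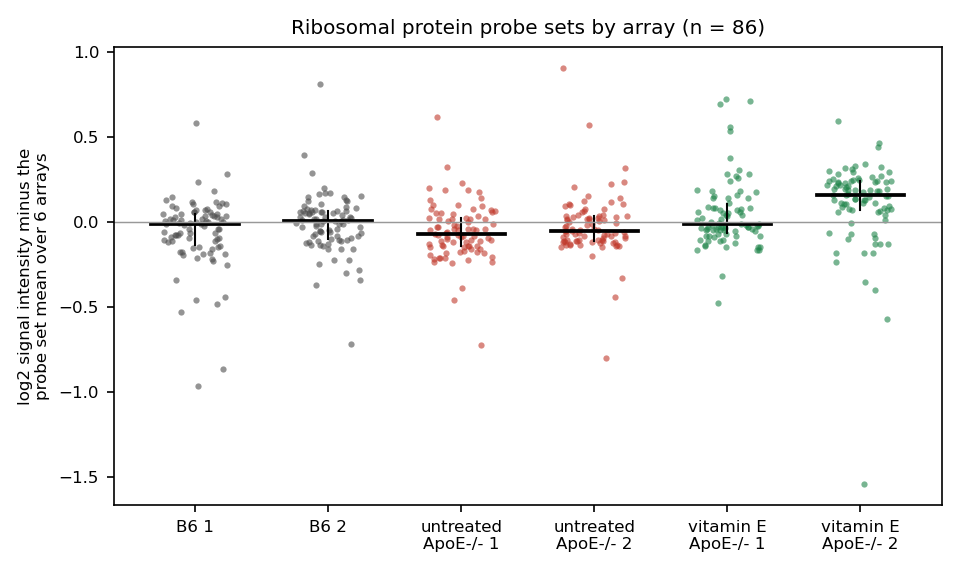
Each point is 1 of the 86 ribosomal protein probe sets tested, and the vertical axis gives its log2 signal intensity minus its own mean over the 6 arrays; the black bar is the median of an array and the vertical line spans the quartiles. The B6, untreated and first vitamin E arrays have medians near 0 with narrow quartiles, and the second vitamin E array sits above them.

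Untreated ApoE-/- against B6 aortas compares samples from atherosclerotic and from healthy mice. These samples also differed in markers of other tissues and in control signals, as given above. The part of such differences in this comparison was not tested. No share under a 1.2-fold change was computed over all probe sets or over the bright ones. Ribosomal protein probe sets changed by less than 1.2-fold in 70 of 86 cases. Called were 7 higher and 3 lower, or 11.6%, while 40.8% of all probe sets tested were called in this comparison, 21.7% higher and 19.1% lower. Of all probe sets with a mean signal of at least 2000, 41.8% were called, 16.7% higher and 25.1% lower. A call with at least a 2-fold change was made for 2 ribosomal protein probe sets, of Rpl7 and Rpl41, and for 7.71% of all. The Rpl41 probe set, also 1 of the 3 lower calls, passed the filter through B6 alone, where it was high. The median log2 fold change was -0.04 for ribosomal proteins and 0.03 for all probe sets. The 95% confidence interval of the change lay within 1.5-fold for 81.4% of ribosomal protein probe sets and for 50.3% of all. In no comparison was this interval share computed for the bright probe sets alone. The prior variance of the model follows the intensity, so brightness and small change cannot be told apart by this share. The direction of the median depends on the scaling, because quantile normalization gave 0.06 and median centring -0.11.

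The share called in this comparison rests on the vitamin E arrays, which enter the fit through the shared spread. With the vitamin E arrays left out, 22 ribosomal protein probe sets were called higher and 36 lower, or 67.4%, beside 50.2% of all probe sets and 70.2% of the bright ones, and all 10 calls named above were among these. The fold changes themselves stay as given when arrays of the third group are left out. With 1 of the untreated or B6 arrays left out, 3 to 5 probe sets were called higher and 1 to 2 lower, while 24.1% to 26.0% of all probe sets were called. The replicates of untreated and of B6 aortas were close, so that the groups did not overlap for 33 probe sets that were higher in untreated aortas and 45 that were lower. Over all probe sets tested the groups did not overlap for 40.8% higher and 36% lower.

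The large subunit held 8 of the 10 calls, 7 higher and 1 lower of 41 probe sets, and the small subunit held 2, both lower, of 42. Their shares of 19.5% and 4.76% lay below the 40.8% of all probe sets. Whether the subunits differ was not tested. The largest called rise was in Rpl7, a large-subunit protein. One of its probe sets (1426163_x_at) had signals of 863 and 954 in B6, 1961 and 1957 in untreated and 2564 and 1843 in vitamin E-treated aortas. Both ApoE-/- groups lay above B6 and overlapped each other. The difference between untreated and B6 aortas was 1.11 on the log2 scale (standard error 0.14, adjusted p = 0.00086 with limma), and between vitamin E-treated and B6 aortas it was 1.26 (adjusted p = 0.00053).

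Rpl13a, a large-subunit protein that also leaves the ribosome to silence inflammatory mRNAs after interferon gamma, had signals of 662 and 695 in B6, 1054 and 992 in untreated and 1165 and 942 in vitamin E-treated aortas on the probe set 1433928_a_at. Its rise in untreated aortas was 1.51-fold (log2 fold change 0.59, standard error 0.10, adjusted p = 0.0036 with limma). Rpl35, which sits at the exit of the peptide tunnel, had signals of 5225 and 5673.5, 7077 and 7143, and 8063 and 7015 on 1436840_x_at, a rise of 1.31-fold (log2 fold change 0.39, adjusted p = 0.011). On both of these probe sets no ApoE-/- array reached down to the B6 arrays. On the brightest Rpl13a probe set, 1455485_x_at, the untreated arrays were below B6, with 11938 and 11941 against 12633 and 13388. Further rises were called in Rpl11, which binds Mdm2 when ribosome assembly fails (log2 fold change 0.19, adjusted p = 0.048), in a second Rpl7 and a second Rpl13a probe set, and in Rpl7l1.

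The lower calls were in Rps28, Rps20 and a dim Rpl41 probe set. Rps28, a small-subunit protein at the exit of the mRNA channel, had signals of 13797 and 13809 in B6, 10627 and 11373 in untreated and 11602 and 14199 in vitamin E-treated aortas (1451101_a_at). It was 1.26-fold lower in untreated aortas (a log2 difference of -0.33, standard error 0.11, adjusted p = 0.043 with limma). Its other 2 probe sets had differences of the same sign, and the 3 values spanned -0.33 to -0.23. Rps20 (1456436_x_at) had signals of 10645 and 10781, 8789 and 9071, and 9555 and 10682, a log2 fold change of -0.26 (adjusted p = 0.035). On these 2 probe sets the vitamin E arrays lay above the untreated ones, and 1 of the 2 was within or above the B6 arrays. On the other Rps28 probe sets the vitamin E and untreated arrays overlapped. Rpl41, the smallest ribosomal protein, was 100.1 and 117.1 in B6 and 40.5 and 38.4 in untreated aortas on 1454639_x_at, with 96.7 and 50.7 in vitamin E-treated aortas. This is the probe set that passed the filter through B6 alone, and its log2 fold change of -1.46 (adjusted p = 0.0074) is therefore given as a value, not as support.

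**Figure D2:**
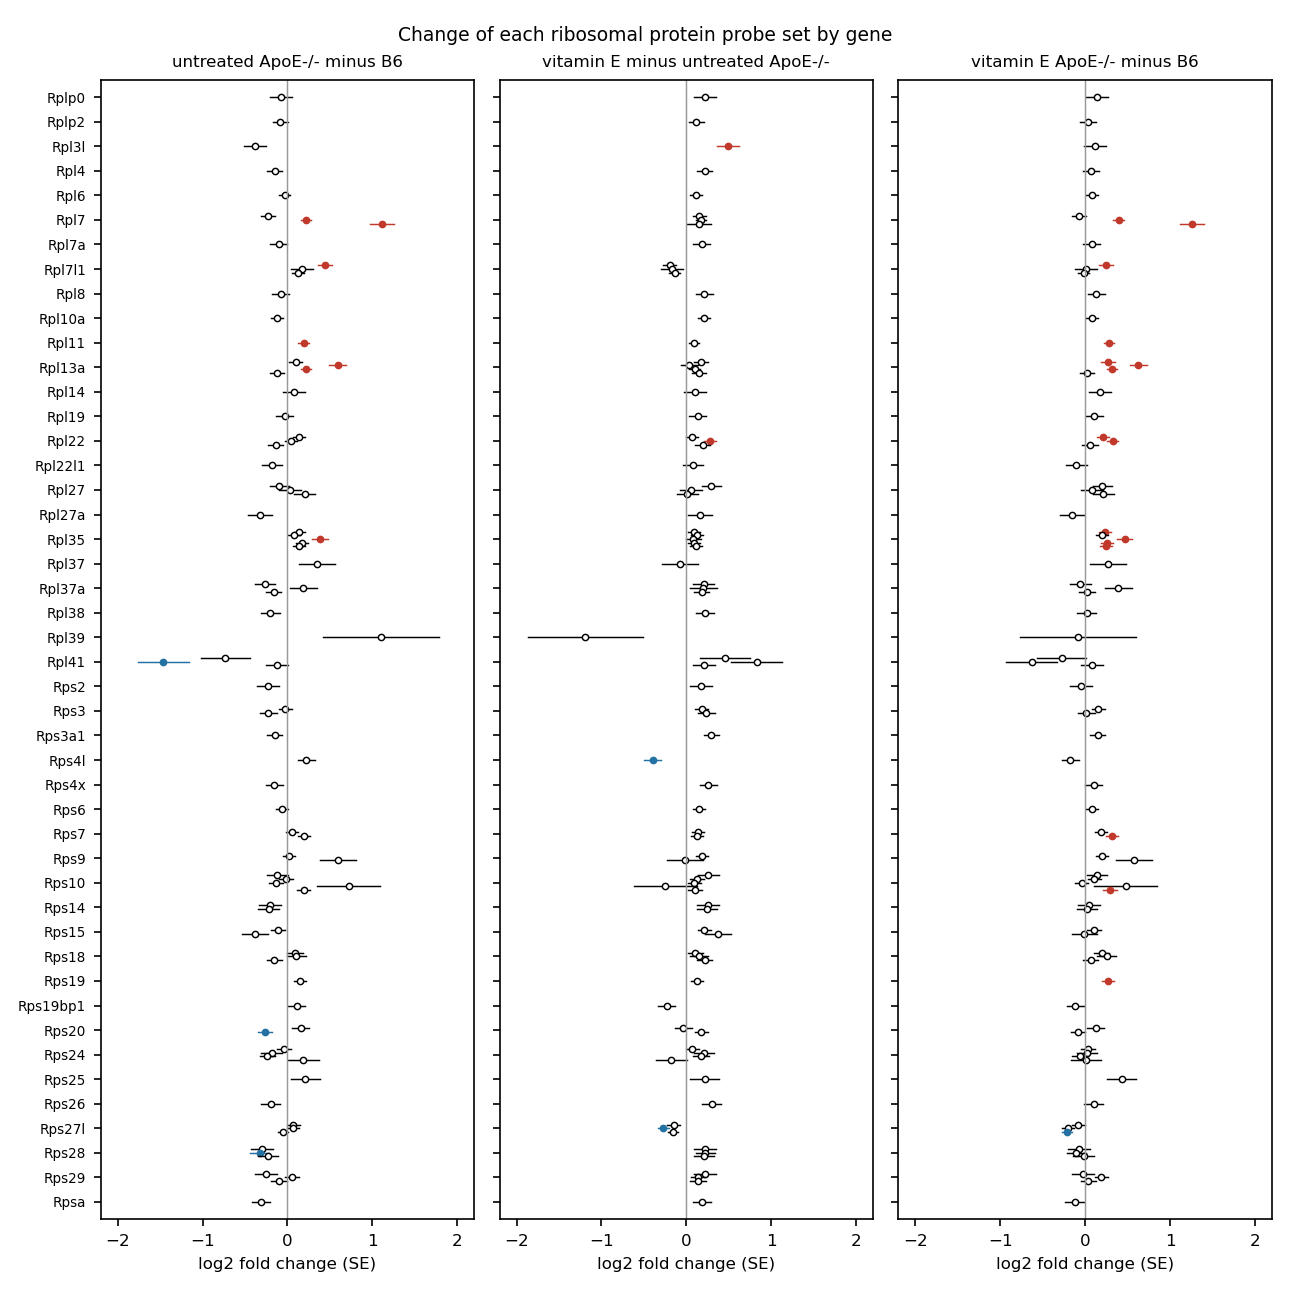
Log2 fold change with its standard error for every tested ribosomal protein probe set, 1 row per gene, in the 3 comparisons; filled red points are called higher, filled blue points called lower and open points not called. Most points lie close to 0, the calls in untreated ApoE-/- against B6 range from -1.46 to 1.11, and the probe sets of Rpl7, Rpl13a, Rpl41 and Rps10 lie apart from each other.

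Probe sets of the same gene often went different ways. Of the 20 genes with more than 1 tested probe set, 11 had differences of both signs between untreated ApoE-/- and B6 aortas, 4 between vitamin E-treated and untreated, and 9 between vitamin E-treated and B6 aortas. No gene had calls in opposite directions. For Rpl7 the log2 fold changes between untreated and B6 aortas were 1.11, 0.22 (adjusted p = 0.024) and -0.23 (adjusted p = 0.051). The last of these, 1415979_x_at, had signals of 7927 and 8712 in B6 and 7026 and 7151 in untreated aortas, so that its groups did not overlap either, in the opposite order. For Rpl13a the range was -0.12 to 0.59 over 4 probe sets. The Rps20 probe set 1456373_x_at, with signals of 9078 and 9656 in B6 and 10346 and 10545 in untreated aortas, had a log2 fold change of 0.16 (adjusted p = 0.23), opposite in sign to the called one.

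Of the 106 probe sets, 40 have IDs ending in x_at, which the manufacturer gives where probes may bind other transcripts, and 28 in a_at, which mark several transcripts of the same gene. Among those tested, x_at probe sets had 3 calls higher and 2 lower of 38 between untreated ApoE-/- and B6 aortas, a_at probe sets 3 and 1 of 27, and plain at probe sets 1 and 0 of 18. These shares of 13.2%, 14.8% and 5.56% lay below the 40.8% of all probe sets called in this comparison. Ribosomal protein genes have many processed pseudogenes, and of the 110 probe sets with several symbols, 48 carried a pseudogene symbol. The 93 of the 110 that were tested gave 5 calls higher and 11 lower, or 17.2%, with a median log2 fold change of -0.13 in this comparison. The cause of the disagreement between probe sets of a gene was not tested. When the brightest probe set stood for each of the 46 genes, 1 gene was called higher and 1 lower, or 4.35%, and the median was -0.10.

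**Figure D3:**
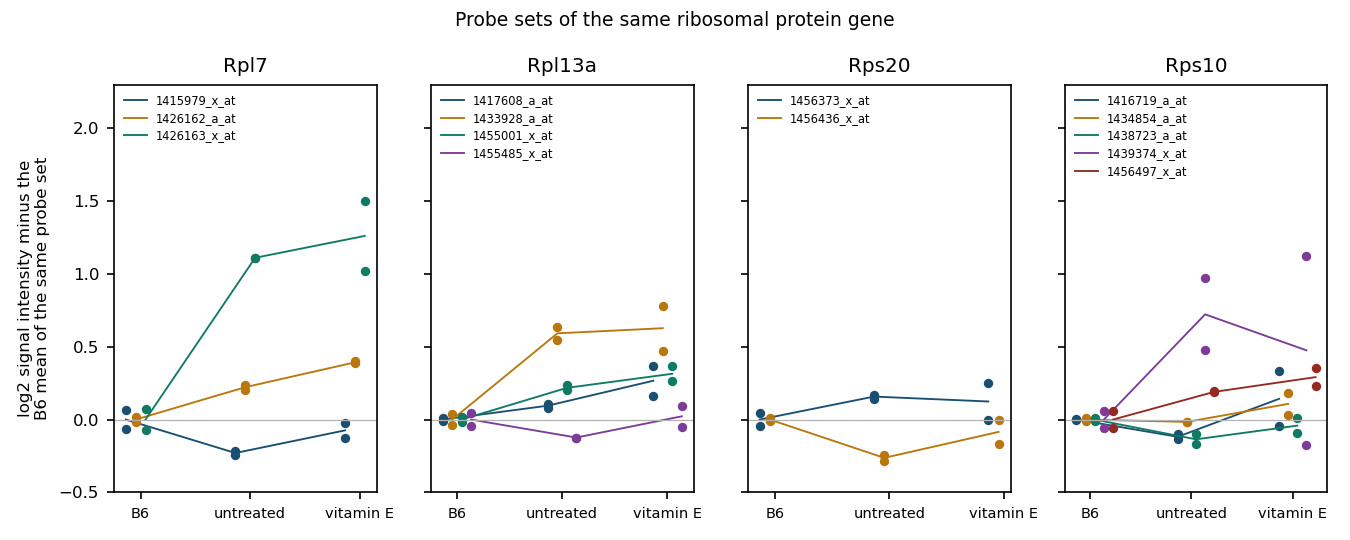
Log2 signal intensity of each array relative to the B6 mean of the same probe set, for all tested probe sets of Rpl7, Rpl13a, Rps20 and Rps10; points are arrays, lines join group means and colors are probe sets. Rpl7 1426163_x_at rises by 1.11 in untreated ApoE-/- aortas while 1415979_x_at lies 0.23 below B6, and the vitamin E arrays of Rps10 1439374_x_at are far apart.

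Vitamin E-treated against untreated ApoE-/- aortas compares mice with and without the treatment. The vitamin E samples are numbered apart from those of the other groups in the database. Whether they were processed apart is not stated. A difference in processing could not be told apart from the treatment in either comparison with these arrays. Of the 86 ribosomal protein probe sets, 72 had a log2 fold change above 0 and the median was 0.15, compared with 0.00 for all probe sets tested. The quartiles were 0.09 and 0.21. Called were 2 higher and 2 lower, or 4.65%, against 15.5% of all probe sets, of which 8.52% were higher and 6.99% lower, and 19.8% of those with a mean of at least 2000, of which 8.52% were higher and 11.2% lower. None of the 4 had a 2-fold change, which 2.17% of all probe sets had along with a call. The 95% interval lay within 1.5-fold for 89.5% of ribosomal protein probe sets and for 65.4% of all. At an unadjusted p under 0.05 the counts were 15 higher and 4 lower. No share of all probe sets stands beside counts at an unadjusted p, here or below, so they show no trait of the family. The groups did not overlap for 49 probe sets that were higher after vitamin E and for 8 that were lower, whereas 30.5% and 28.4% of all probe sets behaved so. Small-subunit and large-subunit probe sets had medians of 0.18 and 0.15, and the 93 probe sets with several symbols 0.17 with 5 calls higher and 1 lower.

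The size of this shift depended on 1 array. The median signal of the ribosomal protein probe sets was 6568 and 6689 in untreated, 6935 and 8054 in vitamin E-treated and 6795 and 6897 in B6 aortas, with the second vitamin E array above the other 5. The vitamin E arrays differed by more than 1.2-fold for 36 of the 86 probe sets (41.9%), compared with 4 in untreated and 3 in B6 aortas. Among all probe sets with a mean of at least 2000, 21.5% differed that much between the vitamin E arrays and 1.15% and 1.43% between those of the other groups. Without the second vitamin E array the median log2 fold change against untreated aortas was 0.07, with 70 of 86 values still above 0 and 8 calls higher and 2 lower, or 11.6%, beside 15% of all probe sets and 33.2% of those with a mean of at least 2000. Without the first it was 0.23, with 45 higher and 7 lower, or 60.5%, beside 19.5% of all and 50.4% of the bright ones. Quantile normalization gave 0.07 and median centring 0.06, so the sign held under both scalings.

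Ribosomal protein probe sets that differed by more than 1.5-fold numbered 6 between the vitamin E arrays, 2 between the B6 arrays and 0 between the untreated ones. Rps10, a small-subunit protein mutated in Diamond-Blackfan anemia, had signals of 5726 and 2329 on the vitamin E arrays, 3649 and 5147 on the untreated and 2519 and 2740 on the B6 arrays (1439374_x_at). Rps9, another small-subunit protein, was at 4920.2 and 2948, 3837 and 3864, and 2399 and 2720.1 on 1434624_x_at. Rpl41 (1422623_x_at) ran the other way, with 4511 and 9462.5 on the vitamin E arrays, 4554 and 4985 on the untreated and 7624 and 8225 on the B6 arrays. In these 3 cases the first vitamin E array was close to or beyond the untreated level and the second close to or beyond the B6 level. Rps24 (1456628_x_at), at 6562 on the first vitamin E array but 4343 on the second, behaved likewise. The dim Rpl41 probe set 1454639_x_at showed the opposite. Its first vitamin E array, at 96.7, was just below the B6 values of 100.1 and 117.1. Its second, at 50.7, was closer to the untreated values of 40.5 and 38.4. Rpl39, at 247 and 52.5, 234 and 286, and 78.3 and 187, was dim and spread widely in the B6 pools as well, and its log2 fold change of -1.19 after vitamin E (95% interval -2.77 to 0.40) was not called.

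Of the 4 calls after vitamin E, 3 were in second copies of ribosomal protein genes. None of the 4 was called when any 1 of the untreated or B6 arrays was left out, when 4.51% to 9.43% of all probe sets were called. Rpl3l, the copy found in striated muscle, had signals of 284 and 301 in B6, 249.8 and 203 in untreated and 339.8 and 294 in vitamin E-treated aortas. It was 1.41-fold higher after vitamin E (log2 fold change 0.49, standard error 0.13, adjusted p = 0.046 with limma) and -0.38 on the log2 scale in untreated against B6 aortas (adjusted p = 0.054). The untreated arrays were the lowest, and the vitamin E and B6 arrays overlapped. The summed signal of 8 skeletal muscle markers moved the same way, with 41079 and 40438 in B6, 22968 and 22772 in untreated and 44193 and 51113 in vitamin E-treated aortas, while 8 cardiac markers had 27660 and 27304, 51717 and 52185, and 27828 and 30913. All 8 genes of both lists had a group mean of at least 100 in every group. The part of muscle tissue in the Rpl3l values was not tested. Rpl3 itself had no probe set with 1 symbol.

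Rps4l, the second gene beside the X-linked Rps4x, fell by 0.40 on the log2 scale after vitamin E (standard error 0.10, adjusted p = 0.038 with limma). Its signals were 414 and 390.2 in B6, 463 and 474 in untreated and 326 and 387 in vitamin E-treated aortas, which puts both vitamin E arrays below all others. Rps4x itself had 10282 and 10272, 9179 and 9245, and 10075 and 12067, and its log2 fold change of 0.26 after vitamin E was not called (adjusted p = 0.11, 95% interval 0.03 to 0.48). Whether the pair differs was not tested.

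Rps27l, a close relative of Rps27 and a target of p53, fell by 0.27 on the log2 scale after vitamin E on 1435429_x_at (adjusted p = 0.044 with limma). The signals were 2728 and 2641 in B6, 2842 and 2774 in untreated and 2459.8 and 2209 in vitamin E-treated aortas. Its other 2 probe sets had log2 fold changes of -0.16 and -0.15 in the same comparison, neither called, and on 1450925_a_at the vitamin E-treated aortas were 1.16-fold below the B6 aortas (adjusted p = 0.022). The vitamin E arrays were the lowest on 1435429_x_at and 1450925_a_at.

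Rpl7l1, a relative of Rpl7, differed most between untreated ApoE-/- and B6 aortas on 1426386_at. The signals were 372 and 364 in B6, 493 and 509 in untreated and 424 and 449 in vitamin E-treated aortas, and no group overlapped another. Relative to B6 it was up 1.36-fold in untreated aortas (log2 difference 0.44, standard error 0.08, adjusted p = 0.0036 with limma) and up 1.18-fold in vitamin E-treated aortas (adjusted p = 0.038). The value between vitamin E-treated and untreated aortas was -0.20 (adjusted p = 0.13). Its other 2 probe sets had log2 fold changes of 0.12 and 0.18 between untreated and B6 aortas, not called.

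Rpl22, needed for T cell development and known to repress its own copy Rpl22l1, had signals of 570.2 and 557 in B6, 583 and 579.9 in untreated and 682 and 728 in vitamin E-treated aortas on 1448398_s_at. It was 1.21-fold higher after vitamin E (log2 fold change 0.28, standard error 0.07, adjusted p = 0.038 with limma). On 1416603_at the difference after vitamin E was 0.07 (adjusted p = 0.53). Rpl22l1 had 3582 and 2963 in B6, 2853 and 2883 in untreated and 2757 and 3338 in vitamin E-treated aortas, and it was called in no comparison. Rpl39l was at 34.3 to 43.1 on all arrays and was not tested.

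**Figure D4:**
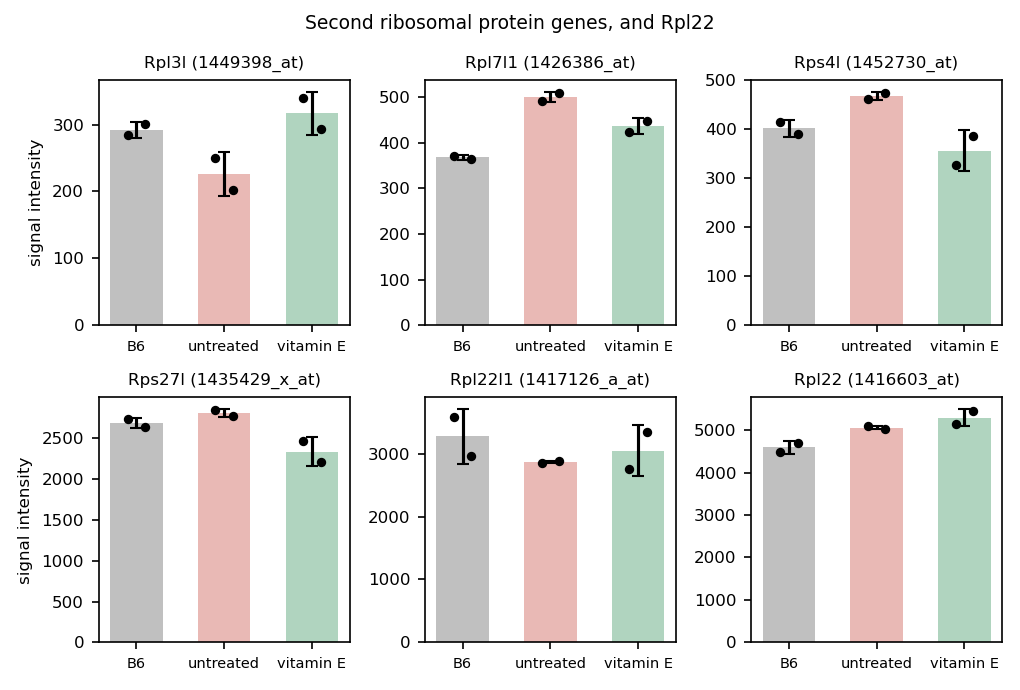
Signal intensity of 1 probe set each of Rpl3l, Rpl7l1, Rps4l, Rps27l, Rpl22l1 and Rpl22; bars are group means, error bars SDs of the 2 arrays and points the arrays. Rpl3l is lowest and Rpl7l1 and Rps4l are highest in untreated ApoE-/- aortas, and the Rpl22l1 vitamin E arrays overlap both other groups.

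These second copies, 9 probe sets of 5 genes, had a median log2 fold change of -0.16 after vitamin E, with 7 of 9 below 0, and 1 call higher and 2 lower, or 33.3%, beside 15.5% of all probe sets. Of the 7 probe sets below 0, 3 were of Rpl7l1, 3 of Rps27l and 1 of Rps4l, so that 3 genes lay below 0, and Rpl3l and Rpl22l1 above it. The 76 probe sets of ordinary ribosomal protein genes had a median of 0.17, with 70 above 0 and 1 call higher. The median of all probe sets tested was 0.00, and the difference between second copies and ordinary genes was not tested.

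Vitamin E-treated ApoE-/- against B6 aortas had the most calls, 16 higher and 1 lower, or 19.8%, against 41.1% of all probe sets tested, 21.9% higher and 19.2% lower. Of all probe sets with a mean of at least 2000, 41.9% were called, 15.2% higher and 26.7% lower. The only call with a 2-fold change was the Rpl7 one given above, beside 6.48% of all probe sets, and the 95% interval lay within 1.5-fold for 87.2% of ribosomal protein probe sets and 50.5% of all. The median log2 fold change was 0.08, compared with 0.02 for all, but -0.07 with median centring, which lowered the median of all probe sets by 0.15 in this comparison. The groups did not overlap for 34 probe sets that were higher and 5 that were lower, against 37.4% and 34% of all. Of the 41 large-subunit probe sets 13 were higher and 0 lower, and of the 42 small-subunit probe sets 3 were higher and 1 lower. Under median centring these counts were 4 and 1, and 0 and 4.

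The higher calls included 4 of the 5 tested Rpl35 probe sets, 3 of the 4 of Rpl13a, 2 of the 3 of Rpl7 and 2 of the 3 of Rpl22. Of the small subunit, Rps7, which binds Mdm2, rose by 0.32 on the log2 scale (1435593_x_at, adjusted p = 0.011 with limma). Rps19, the gene most often mutated in Diamond-Blackfan anemia, rose by 0.27 (adjusted p = 0.018), and Rps10 by 0.29 on 1456497_x_at (adjusted p = 0.023). The second Rpl7 probe set, 1426162_a_at, had 4109 and 3999.9 in B6, 4675 and 4785 in untreated and 5298.5 and 5346 in vitamin E-treated aortas, so that the 3 groups were separate. Its rise over B6 was 0.22 in untreated and 0.39 in vitamin E-treated aortas (standard error 0.06, adjusted p = 0.024 and 0.0023), and both comparisons share the B6 arrays.

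The calls that held under all 3 scalings, the deposited one, quantile normalization and median centring, are listed here. In untreated ApoE-/- against B6 aortas these were calls of Rpl7 (1426163_x_at), Rpl13a (1433928_a_at), Rpl35 (1436840_x_at) and Rpl7l1 (1426386_at), beside the dim Rpl41 probe set that passed the filter through B6 alone. In vitamin E-treated against untreated aortas it was Rps4l alone. In vitamin E-treated against B6 aortas they were 4 of 17, of both Rpl7 probe sets, Rpl13a and Rpl35. The share of all probe sets that kept a call under the 3 scalings was not computed, so these counts have no background.

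The stalk proteins, which recruit elongation factors, were called in no comparison. Rplp0 had signals of 9279 and 10281 in B6, 8873 and 9609.6 in untreated and 9415 and 12348 in vitamin E-treated aortas. Rplp2 had 13272 and 13303 in B6, 12390.0 and 12690.0 in untreated and 12734 and 14516 in vitamin E-treated aortas. For Rplp2 the untreated arrays were below the B6 arrays, and the log2 fold change between these groups had a 95% interval of -0.29 to 0.12. Rpsa, a small-subunit protein also known as the laminin receptor, had 12812 and 13136, 10090.0 and 10845, and 10660.0 and 13248, with a log2 fold change of -0.31 between untreated and B6 aortas (adjusted p = 0.059). Rplp1 had no probe set with 1 symbol. Fau, whose product is cut to release a small-subunit protein, had 7176 and 7619.7, 6973 and 7257, and 7389 and 9644.5, and was called in no comparison. The 31 tested probe sets of genes mutated in Diamond-Blackfan anemia had 2 calls higher and 2 lower in untreated against B6 aortas, 0 after vitamin E (2 at an unadjusted p under 0.05 with limma) and 8 higher in vitamin E-treated against B6 aortas. These shares of 12.9%, 0% and 25.8% lay below the 40.8%, 15.5% and 41.1% of all probe sets.

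The other parts of the translation machinery gave a second view. Of 32 probe sets of elongation factors and other TOP mRNAs, 5 were called higher and 0 lower after vitamin E with a median of 0.20, and 2 higher and 6 lower in untreated against B6 aortas with a median of -0.06. The shares called were 15.6% and 25%, beside 15.5% and 40.8% of all probe sets. The brightest, Eef1a1, which brings aminoacyl-tRNA to the ribosome, had 13056 and 13252 in B6, 11516 and 12548 in untreated and 11836 and 15061 in vitamin E-treated aortas and was called in no comparison. Nap1l1, a histone chaperone, had the largest change of the list in untreated against B6 aortas with 0.69 (adjusted p = 0.11). Its signals were 974 and 1132, 2004 and 1423, and 2414 and 1175.

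Initiation factors, with 53 probe sets, had 12 calls higher and 11 lower in untreated against B6 aortas and 5 higher and 0 lower after vitamin E, with medians of 0.04 and 0.03. The shares of 43.4% and 9.43% stood beside 40.8% and 15.5% of all probe sets. Eif5a, which helps the ribosome past proline stretches, had 6606 and 6572.5 in B6, 7709.9 and 8435 in untreated and 7958 and 8810.1 in vitamin E-treated aortas, a rise of 1.22-fold in untreated aortas (adjusted p = 0.026 with limma). Eif4h, a partner of the helicase Eif4a, had 59.1 and 113, 262 and 276, and 128 and 188 on 1447070_at. This was a rise of 3.29-fold in untreated aortas (adjusted p = 0.0041 with limma). The B6 mean of this probe set was below the filter, so it passed only through the ApoE-/- groups, where it was high. Its rise is therefore given as a value, not as support. All ApoE-/- arrays were above the B6 arrays on both probe sets. Another, brighter Eif4h probe set went the other way, with 4023 and 4198 in B6, 3445 and 3371 in untreated and 3765.5 and 3765 in vitamin E-treated aortas.

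Ribosome biogenesis factors, with 59 probe sets, had 16 calls higher and 4 lower in untreated against B6 aortas, 3 and 1 after vitamin E, and 22 and 0 in vitamin E-treated against B6 aortas, with medians of 0.11, 0.12 and 0.25. The shares called, 33.9%, 6.78% and 37.3%, were below the 40.8%, 15.5% and 41.1% of all probe sets. Nop10, a small part of the machine that modifies ribosomal RNA, was the brightest and had 5412 and 5471 in B6, 3915 and 4203 in untreated and 4589 and 4969 in vitamin E-treated aortas. Untreated aortas were 1.34-fold below B6 (adjusted p = 0.0033 with limma). Ebna1bp2, an assembly factor of the large subunit, had 39.3 and 47.9, 109 and 131, and 43.8 and 61.1 on 1437512_x_at. It reached a mean of 100 in the untreated group alone and so passed the filter through the group where it was high, and its log2 differences of 1.46 between untreated and B6 aortas and -1.21 after vitamin E are values, not support. Another Ebna1bp2 probe set had 301 and 262 in B6, 325 and 279 in untreated and 357 and 328 in vitamin E-treated aortas.

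RNA polymerase I factors, with 18 probe sets, had 4 calls higher and 0 lower, 1 and 0, and 7 and 0 in the 3 comparisons, in the order used above, or 22.2%, 5.56% and 38.9%. These were below the 40.8%, 15.5% and 41.1% of all probe sets. Ubtf, which opens the ribosomal RNA genes for transcription, had 418 and 428 in B6, 731 and 691 in untreated and 667 and 713 in vitamin E-treated aortas. Over B6 it was up 1.68-fold in untreated and 1.63-fold in vitamin E-treated aortas (adjusted p = 0.00027 and 0.00039 with limma). Polr1d, the brightest of the list, had 2838 and 2699, 3118 and 3036, and 3020.0 and 3328, and was not called.

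Mitochondrial ribosomal proteins, which are encoded in the nucleus and translate only the mRNAs of the mitochondrial genome, had a median below 0 after vitamin E. Of 114 probe sets, 0 were called higher with limma, also at an unadjusted p under 0.05, and 17 lower. This is 14.9%, beside 15.5% of all probe sets called and 6.99% called lower, and 93 were below 0 with a median of -0.16. The cytoplasmic ribosomal proteins had 72 of 86 above 0 with a median of 0.15, and the difference between the lists was not tested. Without the second vitamin E array the medians were -0.18 and 0.07, with quantile normalization -0.15 and 0.07, and with median centring -0.24 and 0.06, so both signs held. In untreated against B6 aortas the mitochondrial list had 25 calls higher and 13 lower with a median of 0.10, or 33.3% called beside 40.8% of all.

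Mrpl39, the brightest of the mitochondrial list, had 4868 and 4836 in B6, 3448 and 3390.3 in untreated and 3362 and 3483 in vitamin E-treated aortas. Both ApoE-/- groups were 1.42-fold below B6 (adjusted p = 0.00067 and 0.00073 with limma). Mrpl28 had the largest change of the list between untreated and B6 aortas with 0.83, but its signals of 467 and 487, 567 and 1266, and 725 and 662 show 1 untreated array far above the other, and it was not called (adjusted p = 0.067).

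**Figure D5:**
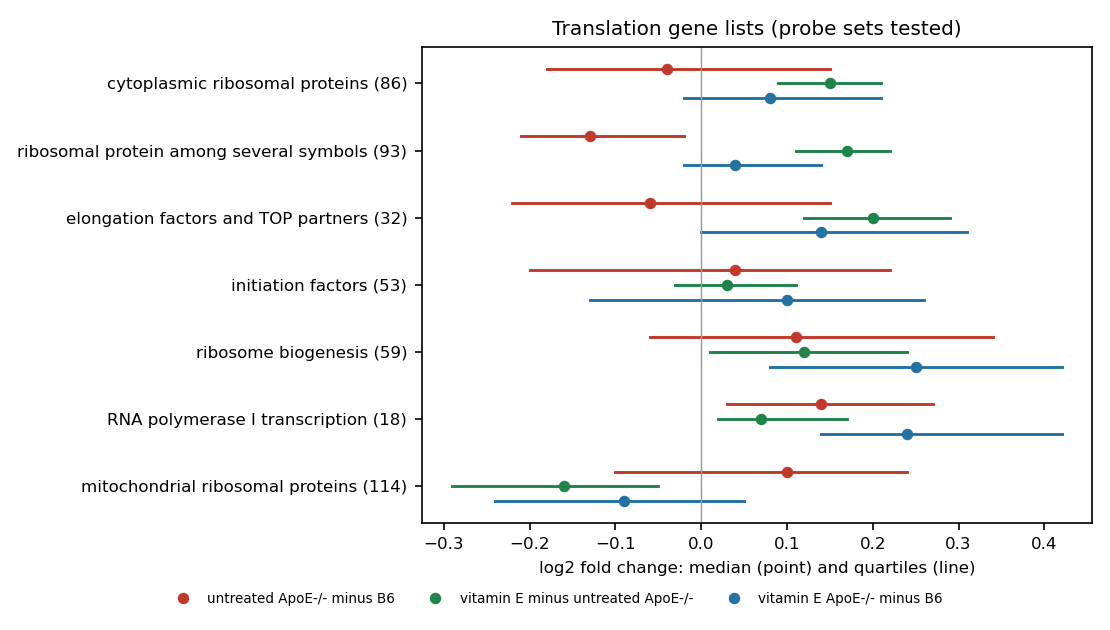
Median log2 fold change (point) and quartiles (line) of the tested probe sets of 7 gene lists in the 3 comparisons, with the number of probe sets in parentheses. After vitamin E the cytoplasmic ribosomal proteins have a median of 0.15 and the mitochondrial ribosomal proteins one of -0.16.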

How the data were processed

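Biotin-labeled cRNA of mouse aortas was hybridized by the authors to Affymetrix whole-genome gene chips, with RNA of 3 aortas pooled per chip. The authors computed signal intensities with GCOS, scaled each array to a target value of 200 and deposited 1 linear intensity per probe set and array. Scaling fixes the overall brightness, so that changes are relative to the other probe sets. Groups came from the sample titles. Symbols came from the array's annotation, and all 106 probe sets matched a RefSeq gene of the same symbol. Probe sets with several symbols were not named, and the 64 control probe sets were not tested.

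A floor of 20 was applied before taking log2. The 17909 probe sets whose mean reached 100 in 1 or more groups entered 1 limma model (limma 3.58.1, R 4.3.3) of all 6 arrays, with a mean for each group and the prior variance following the intensity, with 3 degrees of freedom left per probe set and 4.46 from the prior. P-values were adjusted over all 17909 after Benjamini-Hochberg. Means, SDs and listed values are linear intensities before the floor. Counts and figures were made with Python 3.11.15, pandas 2.3.3 and matplotlib 3.10.9. On simulated data for vitamin E-treated against untreated aortas, 85 of 100 probe sets changed by 0.5 on the log2 scale and 100 of 100 changed by 1 were recovered, with 15 false calls of 16873. The simulated noise was normal with the same spread in every group, and only brighter probe sets were changed. The median absolute log2 difference between real replicates was 0.147 in vitamin E-treated, 0.092 in untreated and 0.096 in B6 aortas, so these rates need not hold for the data. The number of arrays limits the precision.

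Named genes are the 4 largest rises and falls among calls without overlap in each comparison, the 4 with the highest mean, second copies and their partners, the stalk, Rpsa, Fau, and of each list the brightest and the one with the largest change between untreated and B6 aortas. The other called genes, and the probe sets that differ between the vitamin E arrays or within a gene, were chosen after their values were seen. The members and lists were chosen with earlier results of these data known. Alternatives were quantile normalization, median centring, floors of 50 or none, no filter, a filter on the mean of all arrays, no trend, only the 2 groups compared, 1 probe set per gene, a replicate block, leaving out single arrays, plain at probe sets, the methods' t-test, and, chosen after seeing the data, the inclusion of probe sets with several symbols.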

Additional observations from a re-analysis of the deposited data

How the results depend on the processing

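Counts of ribosomal protein probe sets called higher and lower are given for untreated ApoE-/- minus B6, vitamin E-treated minus untreated, and vitamin E-treated minus B6 aortas, in this order, and were 7 and 3, 2 and 2, and 16 and 1 with limma. Floors of 50 or none and a filter on the mean of all arrays left each count within 1.5 times of these. Quantile normalization gave 15 and 5, 8 and 1, and 25 and 0, beside 39.7%, 15.9% and 40.6% of all probe sets called. Median centring gave 4 and 11, 0 and 2, and 4 and 5, shifted the median of all probe sets by -0.07, -0.08 and -0.15, and moved the share of higher among all calls from 53.1%, 55.0% and 53.3% to 43.2%, 33.7% and 31.4%. With it 39.6%, 15.6% and 43.7% of all probe sets were called. Without a filter the counts were 2 and 1, 0 and 0, and 6 and 1, without the intensity trend 4 and 1, 0 and 0, and 11 and 0, and with only the 2 groups compared 22 and 36, 0 and 0, and 8 and 0. Without a filter all 106 ribosomal protein probe sets were tested, and 9.98%, 2.11% and 9.91% of all probe sets were called. The shares of all were 37.9%, 11.9% and 37.8% without the trend and 50.2%, 10.5% and 37.1% with only 2 groups. At an unadjusted p under 0.05 the vitamin E-treated against untreated comparison had 8 and 6 without a filter, 6 and 4 without the trend and 4 and 2 with only 2 groups. For counts at an unadjusted p no share of all probe sets is given in this section. One probe set per gene gave 1 and 1, 1 and 2, and 2 and 0, and plain at probe sets 1 and 0, 1 and 1, and 2 and 0. In the fit that both used, 40.8%, 15.5% and 41.1% of all probe sets were called. The methods' t-test at a p under 0.01 and a 2-fold change gave 1 and 1, 0 and 0, and 0 and 0 on log2 values and 1 and 0, 0 and 0, and 0 and 0 on linear values. Among all probe sets the shares were 4.41%, 1.03% and 3.27% on log2 values and 4.41%, 0.994% and 3.28% on linear values. After Benjamini-Hochberg both gave 2 and 3, 0 and 0, and 0 and 0, and at an unadjusted p under 0.05 13 and 23, 4 and 2, and 12 and 1 on log2 values. The numbers of the replicates only name the samples. With a replicate block the counts were 6 and 6, 0 and 0, and 13 and 1 (unadjusted 10 and 11, 11 and 3, and 21 and 2), and deviations of samples with the same number correlated at 0.055, 0.054 and -0.098, so the numbers were not taken as a pairing. The block called 38.5%, 12.2% and 39.0% of all probe sets. Leaving out 1 array gave 3 to 22 higher and 1 to 36 lower, 0 to 45 and 0 to 7, and 4 to 49 and 0 to 12. Without the first vitamin E array the counts were 22 and 36, 45 and 7, and 49 and 4, and without the second 22 and 35, 8 and 2, and 23 and 12, while 48.7%, 19.5% and 41.7% of all probe sets were called without the first and 48.9%, 15% and 40.2% without the second (of those with a mean of at least 2000, 69.8%, 50.4% and 61.3%, and 69.9%, 33.2% and 63.6%). Rpl38 in vitamin E-treated against B6 aortas turned from 0.02 to -0.14 without the second vitamin E array and was 0.18 without the first. With probe sets of several symbols included, chosen after seeing the data, the counts were 12 and 14, 7 and 3, and 23 and 2, with quantile normalization 28 and 16, 19 and 2, and 45 and 1, and with median centring 8 and 34, 1 and 3, and 7 and 12. The cause of these changes was not tested. With 2 arrays of pooled RNA per group, the spread is estimated from few arrays, and scaling sets the zero of every change.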

Other observations

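Genes that signal to or from the ribosome were measured as lists too. Of 21 probe sets of the mTOR pathway, 7 were called higher and 1 lower in untreated ApoE-/- against B6 aortas, 1 and 6 in vitamin E-treated against untreated, and 3 and 4 in vitamin E-treated against B6 aortas, with medians of 0.29, -0.19 and 0.18 on the log2 scale. The shares called were 38.1%, 33.3% and 33.3%, beside 40.8%, 15.5% and 41.1% of all probe sets. This list holds both activators and inhibitors of mTOR, so its counts and medians give no direction of pathway activity. Rheb, which activates mTOR, had signals of 1998 and 2639.5 in B6, 2686 and 2413 in untreated and 2218 and 1735 in vitamin E-treated aortas and was called in no comparison. Sesn2, a stress-induced inhibitor of mTOR, had 77.1 and 16.8 in B6 and 116 and 104 in untreated aortas, and it was not called (adjusted p = 0.062 with limma).

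Of 17 probe sets of the integrated stress response, which slows initiation, 5 were called higher and 3 lower in untreated against B6 aortas, 3 and 0 after vitamin E, and 8 and 2 in vitamin E-treated against B6 aortas, or 47.1%, 17.6% and 58.8% beside the same shares of all. Atf4, its central transcription factor, had 1155.5 and 1051 in B6, 1163 and 1268 in untreated and 1216 and 1215 in vitamin E-treated aortas and was not called.

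Of 13 probe sets of p53 surveillance and p53 targets, 3 were called higher and 3 lower in untreated against B6 aortas, or 46.2% beside 40.8% of all. Cdkn1a, the cell cycle inhibitor p21, had signals of 990.2 and 1048 in B6, 472 and 459.7 in untreated and 703 and 819.8 in vitamin E-treated aortas, and no group overlapped another. It fell by 1.13 on the log2 scale in untreated aortas (adjusted p = 9.6e-05 with limma) and rose by 0.71 after vitamin E (adjusted p = 0.0028). Phlda3, an inhibitor of Akt, ran the other way, with 2376 and 2237 in B6, 4065 and 4094 in untreated and 2678.5 and 2895 in vitamin E-treated aortas. On the log2 scale it rose by 0.82 in untreated over B6 aortas and fell by 0.55 after vitamin E (adjusted p = 0.00012 and 0.0027).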
